A study of Mus musculus with 6 samples.

Results

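The genes described here build the DNA replication machinery and the chromatin assembly factor that follows it, in mouse embryonic stem cells sorted for a two-cell-like state. They comprise 44 genes, taken by name: the licensing factors that load the replicative helicase, the proteins that activate it, polymerases and primase, the sliding clamp and its loaders, single-strand binding and lagging-strand enzymes, enzymes of nucleotide supply, and both large subunits of CAF-1. All 44 had a row among the 17110 genes of the authors' deposited comparison table, so none was lost to a filter on low values.

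The cells were of the line TG2A, carrying a fluorescent protein driven by MERVL, an endogenous retrovirus, and were grown in serum with leukemia inhibitory factor. Sorting by the DsRed2 signal of that reporter gave DsRed2+ and DsRed2- groups with 3 samples in each, described as biological replicates from different dates. Both groups carry the reporter and shared the medium, and both come from this single line. A reporter of this kind marks the cells in which the retroviral promoter is active and no other feature of the state. Polyadenylated RNA was sequenced. The table gives 1 log2 fold change per gene, written below as the value ± its standard error, and it names neither the groups nor the direction, so "positive" and "negative" below are the signs as deposited. The 6 columns of the count table have names that match no sample label and were not used here, so values per sample, library depth and the spread between replicates are not analysed here. In bulk RNA, fewer cells of a type and less RNA per cell cannot be told apart.

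Replication begins when the origin recognition complex, with Cdc6 and Cdt1, loads the MCM helicase as an inactive ring in G1, a step called licensing. In S phase, Cdc45 and the GINS complex turn the ring into an active helicase, and polymerases, clamp and loaders assemble on the opened DNA. CAF-1 then places new histones H3 and H4 on the daughter strands. In mouse embryonic stem cells, depletion of CAF-1 is known to raise the share of cells in a two-cell-like state. Many genes of this machinery are textbook targets of E2F, the factor that opens the S phase programme.

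The labelled cell type was checked against its markers. In the authors' deposited table, 19 of 20 pluripotency markers had a row, among them Pou5f1, the core pluripotency factor, at a mean normalized count of 32810, and 14 of the 19 were called positive and 1 negative. The pluripotency-associated factors Tbx3, Zfp42 and Fbxo15 led the positive calls at 2.39, 1.10 and 0.98, and Dppa3 was the negative one at -0.76. Of 30 two-cell stage markers, 5 had a row, and 2 of these were called positive, Calcoco2 at 3.10 and Dppa2 at 1.11. The others were not called: Arg2 at 0.45 with a mean count of 6.12, Nelfa at 0.22 and Zfp750 at -0.29. Markers of other cell types moved with the comparison as well. Of 12 fibroblast or feeder markers with a row, 6 were called negative and 1 positive in the authors' deposited table, and their mean counts ran from 7.15 to 25847. The highest was Fn1, which embryonic stem cells can also express, and it was the positive call, at 0.58. The negative calls with the smallest p-values were Tagln, a smooth muscle and fibroblast gene, at -5.96, Twist1 at -2.54 and the collagen gene Col5a1 at -1.38. Of 13 trophectoderm markers, 8 were called negative and 0 positive, with mean counts from 13.7 to 1903. The epithelial keratins Krt19, Krt8 and Krt18 had the smallest p-values, at -4.73, -4.39 and -3.96. The summed mean count was 32704 for the fibroblast list, of which Fn1 made up 79.0%, leaving 6858 for the other 11 genes, and 7665 for the trophectoderm list, against 177945 for the pluripotency list. The part of these other cell types in the values below was not tested.

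The 44 genes changed little, and those called in the authors' deposited table were all positive. In the authors' deposited table, 13 of the 44 genes (29.5%) were called positive at an adjusted p-value under 0.05 by the authors' DESeq2 test and 0 were called negative. Over all genes 30.5% were called, 14.6% positive and 15.9% negative. The share called in either direction was thus near the background, and the split between directions was 13 to 0 where the whole table held 2492 positive and 2719 negative calls. The replication genes are abundant, with mean normalized counts from 395.7 to 18816. Among the 8541 genes at or above that lowest count, 17.3% were called positive and 15.0% negative. That set is not matched in level, with a median mean count of 1625 against 3759 for the 44 genes. At an unadjusted p-value under 0.05, 14 replication genes were positive and 3 negative in the authors' deposited table. Over all 17110 genes, 3208 were positive and 3359 negative at that threshold.

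The direction of this split depended partly on the zero point. With fold changes set relative to 77 ribosomal protein genes, whose median in the authors' deposited table was 0.093 on the log2 scale, 6 replication genes were called positive and 3 negative. The 6 were Cdt1, Gins1, Mcm10, Orc1, Pola1 and Ticrr, and the calls of the other 7 were lost. The 3 were Orc6, Rfc3 and Rpa3. Over all genes this centring gave 1864 positive and 3508 negative calls.

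The changes were small in size. The median log2 fold change of the 44 genes was 0.13 in the authors' deposited table, against 0.0097 over all genes, and the range ran from -0.27 for Orc6 to 0.72 for Pola1. The authors also marked genes as up or down where the adjusted p-value was under 0.05 and the log2 fold change exceeded 0.5 in size, and 21.5% of all genes carry such a mark. Pola1 was the only replication gene with that mark in the authors' deposited table. For 34 of the 44 genes (77.3%) the whole 95% interval, computed from the fold change and its standard error by the normal distribution, lay within 0.5 of 0. The same held for 33.0% of all genes and for 61.0% of genes at or above the lowest mean count of the replication genes. That last set is not matched in precision, with a median standard error of 0.119 against 0.098 for the 44 genes. How much of the difference in share comes from this was not tested.

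**Figure D1:**
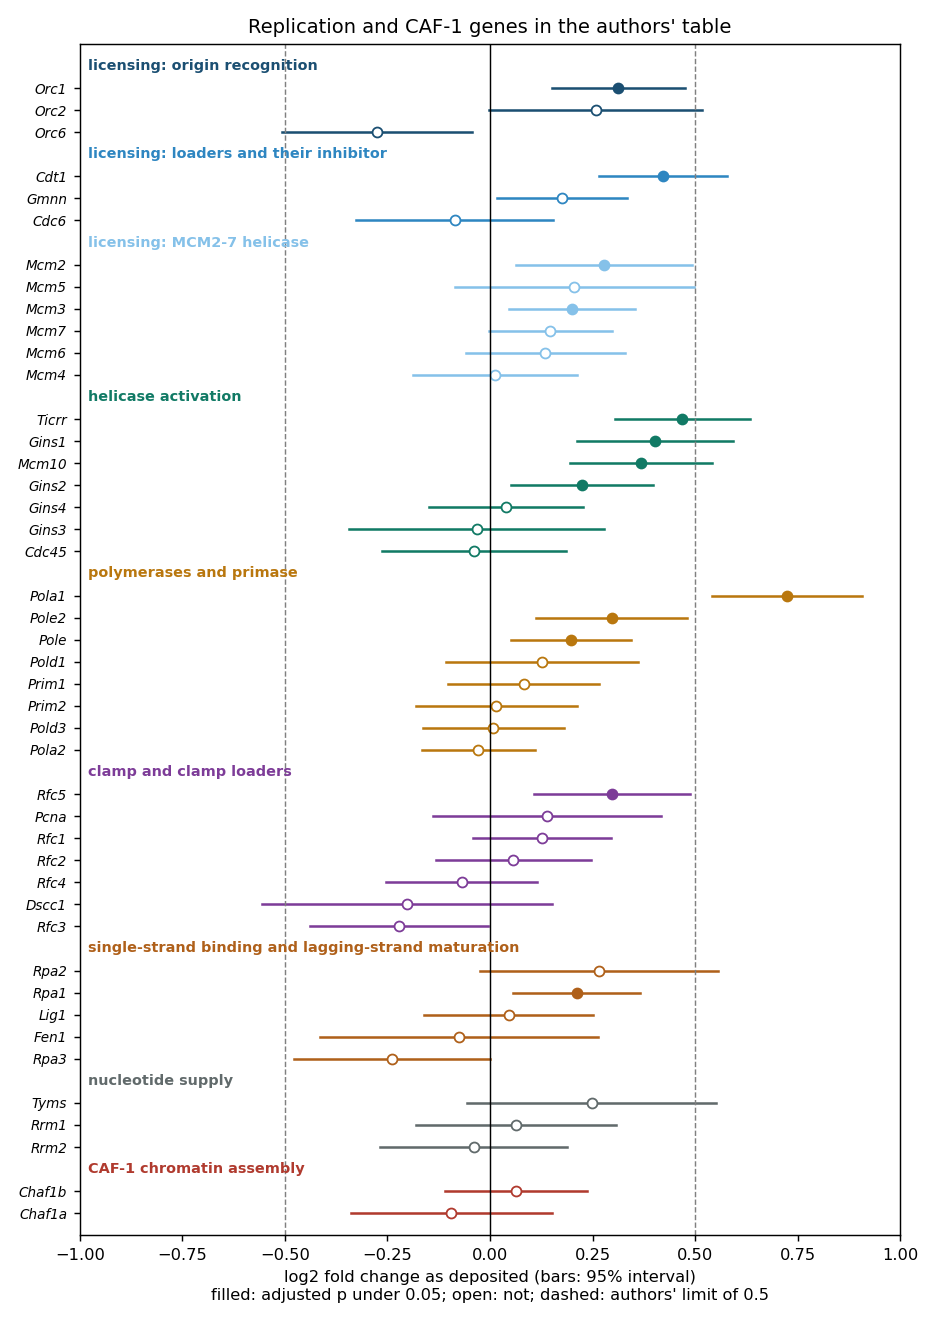
Log2 fold change as deposited (x axis) of the 44 replication and CAF-1 genes (rows, grouped by role), with 95% intervals as bars, filled points for genes at an adjusted p-value under 0.05 and dashed lines at the authors' limit of 0.5. All 13 filled points lie to the right of 0, and only the interval of Pola1 lies wholly beyond 0.5.

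**Figure D2:**
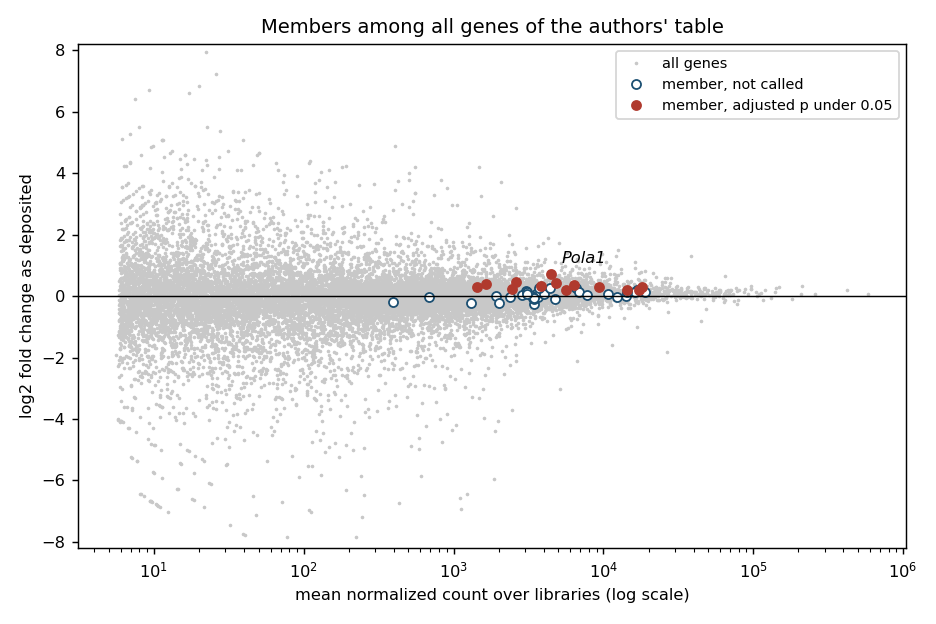
Log2 fold change as deposited (y axis) against the mean normalized count over libraries (x axis, log scale) for all 17110 genes in grey and the 44 replication and CAF-1 genes as large points, red where the adjusted p-value was under 0.05. The replication genes lie in the upper part of the count range, from 395.7 to 18816, within a narrow band around 0.

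Promoter sequence was not used to choose the genes and was read to see which regulatory motifs they share. RefSeq windows of 300 bases (250 before and 50 after the start, GRCm38.p6) were matched by symbol for 35 of the 44 genes, in 40 windows. Gmnn, Mcm4, Gins1, Gins2, Gins4, Prim2, Pole, Rfc2 and Dscc1 had no window. An E2F-like motif, TTTNNCGC on either strand, was found in 15 of the 40 windows (37.5%), against 8.08% of 14675 windows of genes in the table and 5.17% of all 32851 windows. The median GC content was 59.2% in the windows of the replication genes and 60.7% in those of genes in the table. By call, 5 of 10 windows of called genes and 10 of 30 windows of genes not called held the motif. The CCAAT box stood in 25 of the 40 windows (62.5%), against 37.9% of windows of genes in the table. The CHR-like motif TTTGAA stood in 4 of the 40, against 12.2% of those windows, and the NRF1-like motif CGCATGCG in 1 of the 40, against 3.48%. Both strands were searched for each motif. A match of letters is a description and not evidence of binding.

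The 160 bases before the start are printed below, 5′ to 3′ on the strand of the gene, with E2F-like matches in capitals. They are given for the 7 genes with a match in that stretch, so that positive genes (Pola1, Orc1, Mcm5, Mcm6) can be read against genes of negative sign (Rfc3, Cdc6, Gins3), and for both CAF-1 genes, which have none of these letters there.
Pola1 (chrX:93632156-93632315, minus strand): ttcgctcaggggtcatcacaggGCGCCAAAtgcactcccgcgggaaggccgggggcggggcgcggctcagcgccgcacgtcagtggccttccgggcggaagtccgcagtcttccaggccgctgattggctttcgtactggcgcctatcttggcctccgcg
Orc1 (chr4:108579294-108579453, plus strand): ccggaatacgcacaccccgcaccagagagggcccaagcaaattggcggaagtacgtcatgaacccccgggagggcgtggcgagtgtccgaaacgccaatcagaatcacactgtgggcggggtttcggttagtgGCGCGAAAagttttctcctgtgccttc
Mcm5 (chr8:75109349-75109508, plus strand): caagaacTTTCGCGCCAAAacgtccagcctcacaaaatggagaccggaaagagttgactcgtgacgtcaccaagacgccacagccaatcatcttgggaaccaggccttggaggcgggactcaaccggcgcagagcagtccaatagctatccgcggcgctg
Mcm6 (chr1:128359706-128359865, minus strand): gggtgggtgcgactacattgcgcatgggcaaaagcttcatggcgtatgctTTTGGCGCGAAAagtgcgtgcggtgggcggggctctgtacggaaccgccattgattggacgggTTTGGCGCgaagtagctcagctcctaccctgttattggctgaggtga
Rfc3 (chr5:151651209-151651368, minus strand): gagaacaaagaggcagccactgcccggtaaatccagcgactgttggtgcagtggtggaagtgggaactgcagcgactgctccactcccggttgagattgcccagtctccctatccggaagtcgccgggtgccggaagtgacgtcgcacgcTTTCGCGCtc
Cdc6 (chr11:98907991-98908150, plus strand): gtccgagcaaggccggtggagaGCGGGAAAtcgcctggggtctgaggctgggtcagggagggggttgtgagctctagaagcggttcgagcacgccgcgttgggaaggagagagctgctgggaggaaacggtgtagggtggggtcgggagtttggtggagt
Gins3 (chr8:95633399-95633558, plus strand): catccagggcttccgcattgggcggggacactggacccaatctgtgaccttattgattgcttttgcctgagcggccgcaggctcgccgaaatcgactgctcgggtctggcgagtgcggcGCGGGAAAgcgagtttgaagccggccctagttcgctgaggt
Chaf1a (chr17:56040256-56040415, plus strand): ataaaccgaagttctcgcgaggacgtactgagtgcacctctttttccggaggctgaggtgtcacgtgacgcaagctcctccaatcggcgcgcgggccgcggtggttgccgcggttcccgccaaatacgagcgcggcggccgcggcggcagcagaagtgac
Chaf1b (chr16:93883741-93883900, plus strand): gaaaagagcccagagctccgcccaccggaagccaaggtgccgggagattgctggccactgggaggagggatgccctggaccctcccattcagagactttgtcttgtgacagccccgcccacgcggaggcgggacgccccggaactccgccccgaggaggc

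In Pola1 the match began 138 bases before the start, and in Orc1 it began 27 bases before it. The stretch of Mcm6 held 3 matches and that of Mcm5 held 2, in both cases with a pair that overlaps on opposite strands. In 7 further genes, Cdt1, Mcm3, Pole2, Pold1, Pold3, Lig1 and Tyms, E2F-like letters were found only after the start. Mcm7 has 2 windows, and its matches began 165 bases before and 17 bases after 1 of these starts. The same letters thus stood before the start of the strongest positive gene, Pola1, and of genes that were not called in the authors' deposited table.

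**Figure D3:**
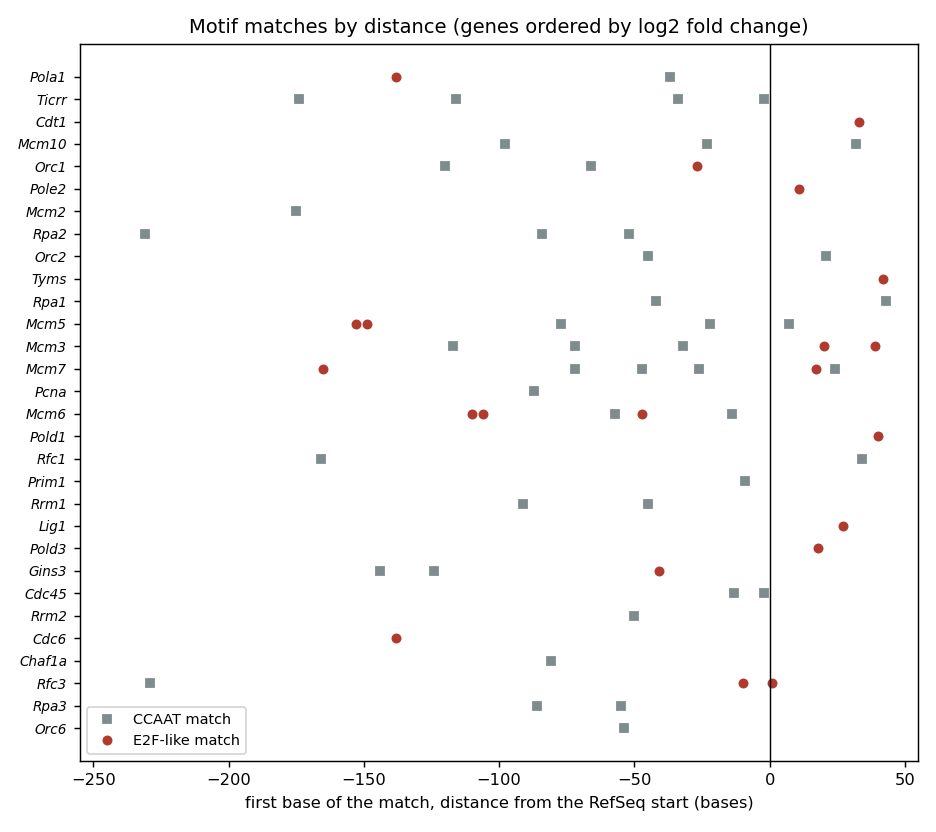
Distance in bases from the RefSeq start (x axis, negative before the start) to the first base of each E2F-like (circles) and CCAAT (squares) match, for the replication genes with at least 1 match (rows, ordered from the most positive to the most negative log2 fold change). Genes with several windows share a row, and E2F-like matches occur at the top, middle and bottom of the order.

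Of the 3 origin recognition genes chosen, 1 was called. Orc1 (ENSMUSG00000028587), the largest subunit, had a log2 fold change of 0.31 ± 0.083 per the authors' deposited table (adjusted p-value 0.00101), a 1.24-fold difference. Orc2, a core subunit, stood at 0.26 with an interval from -0.0016 to 0.52 per the authors' deposited table (adjusted p-value 0.133). Orc6, the smallest subunit, was at -0.27 with an interval from -0.51 to -0.043 and missed the threshold (adjusted p-value 0.063 in the authors' deposited table). With trends in GC content and transcript length removed, Orc6 moved to -0.31 and was called negative.

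The remaining origin recognition subunits were Orc3, Orc4 and Orc5. In the authors' deposited table, Orc5 was called positive at 0.49 ± 0.12 (adjusted p-value 0.000337). Orc3 and Orc4 were at -0.099 ± 0.079 and -0.16 ± 0.084 in the authors' deposited table, and neither passed. Across all 6 subunits the fold changes thus spanned 0.77 on the log2 scale, with Orc5 and Orc6 at the ends.

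The loading factors and their inhibitor had 1 call among 3 genes. Cdt1 (ENSMUSG00000006585), which brings the helicase to origins, was called positive at 0.42 ± 0.079 per the authors' deposited table (adjusted p-value 1.29e-06), a 1.34-fold difference. Gmnn encodes geminin, which binds and blocks Cdt1, and stood at 0.17 ± 0.081 per the authors' deposited table (adjusted p-value 0.0877). Cdc6, the partner of Cdt1 in loading, was at -0.086 with an interval from -0.33 to 0.15. The difference between Cdt1 and Cdc6 was not tested.

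All 6 genes of the MCM ring were positive in sign, Mcm4 only until fold changes were set relative to ribosomal protein genes (-0.081), and 2 were called. The authors' deposited table put Mcm2 at 0.28 ± 0.11 (adjusted p-value 0.0376) and Mcm3 at 0.20 ± 0.078 (adjusted p-value 0.0383). Mcm5, Mcm7, Mcm6 and Mcm4 were at 0.21, 0.15, 0.14 and 0.012 and did not pass. Every one of the 6 intervals lay within 0.5 of 0, so a larger difference in any ring subunit falls outside the intervals. Both calls were lost relative to ribosomal protein genes, where Mcm2 stood at 0.19 and Mcm3 at 0.11, and that of Mcm3 also when the median of all genes was the zero point.

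Ring subunits were also close in level. Mean normalized counts were divided by the length of the principal transcript in GENCODE M21 to compare genes. On that scale the 6 ring genes ran from 3949 counts per kb for Mcm4 to 6352 for Mcm7, a 1.61-fold span, the highest levels among the complexes examined other than the CAF-1 subunit Rbbp4. Mcm7 shares exon bases with the opposite-strand genes Ap4m1 and Cops6 and hosts microRNA genes, and the use of strand in counting is not given in the sources used here.

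Helicase activation held the largest share of calls among the roles, 4 of 7 genes, all positive, where 14.6% of all genes were called positive. Ticrr (ENSMUSG00000046591), also called treslin, which carries the kinase signal for origin firing, was at 0.47 ± 0.084 per the authors' deposited table (adjusted p-value 2.88e-07), a 1.38-fold difference. Gins1 stood at 0.40 ± 0.097 (adjusted p-value 0.000244) and Mcm10, which is needed for the helicase to start unwinding, at 0.37 ± 0.088 (adjusted p-value 0.00023) in the authors' deposited table. Gins2 was called at 0.22 ± 0.088 per the authors' deposited table (adjusted p-value 0.0389), a call that was lost when the median of all genes was the zero point. Cdc45, the partner of GINS in the active helicase, was at -0.038 with an interval from -0.26 to 0.19 and was not called.

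Within the GINS complex, a tetramer, the calls fell on 2 of the 4 genes. Gins3 and Gins4 were at -0.033 ± 0.16 and 0.038 ± 0.095 in the authors' deposited table, while Gins1 and Gins2 were called positive. The test of the difference between subunits needs values per sample and was not made. Their levels differed 7.74-fold, from 273.3 counts per kb for Gins3 to 2114 for Gins4. Exons of Gins2 overlap the opposite-strand gene Gse1 over 67.3% of their length, and Gse1 stood at 0.19 in the authors' deposited table, so the value of Gins2 is uncertain if strand was not used. Of the 13 called genes, 7 share exon bases with another annotated gene, Gins2 among them.

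Polymerase genes included the largest fold change of the 44. Pola1 (ENSMUSG00000006678), the catalytic subunit of polymerase alpha, which extends the RNA primer that starts each new strand, had a log2 fold change of 0.72 ± 0.093 per the authors' deposited table (adjusted p-value 2.22e-13). This is a 1.65-fold difference, with an interval from 0.54 to 0.91 on the log2 scale. The other subunits of the same enzyme were near 0. Pola2, its accessory subunit, was at -0.029 with an interval from -0.17 to 0.11 in the authors' deposited table, and the primase genes Prim1 and Prim2 were at 0.082 ± 0.094 and 0.016 ± 0.10. The intervals of these 3 genes end below 0.27 and do not meet that of Pola1, though the difference itself was not tested. Per length, Pola1 was the lowest of the 4, at 832.1 counts per kb, and Prim1 the highest, at 2249.

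Polymerase epsilon, which copies the leading strand, had calls in its catalytic subunit Pole and in Pole2. In the authors' deposited table, Pole was at 0.20 ± 0.074 (adjusted p-value 0.0285) and Pole2 at 0.30 ± 0.094 (adjusted p-value 0.00724). Of the small histone-fold subunits, Pole4 was called positive at 0.67 ± 0.088 (adjusted p-value 1.31e-12) and Pole3 stood at -0.063 ± 0.19 (adjusted p-value 0.847) in the authors' deposited table. Polymerase delta, which copies the lagging strand, had no call in Pold1 (0.13 ± 0.12) or Pold3 (0.0081 ± 0.088). Its remaining subunits were Pold2, called positive at 0.39 ± 0.11, and Pold4, at -0.14 ± 0.28 and a mean count of 88.7 in the authors' deposited table.

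**Figure D4:**
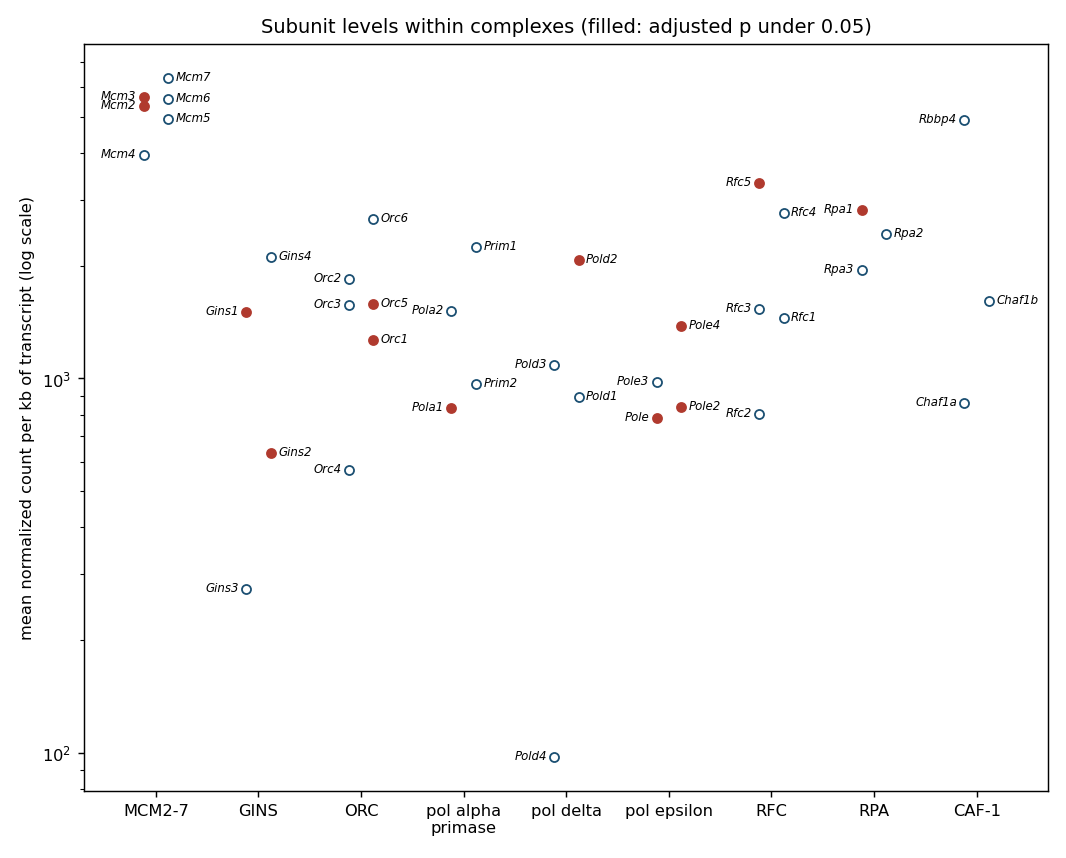
Mean normalized count over libraries divided by the length of the principal GENCODE M21 transcript in kb (y axis, log scale) for subunits of 9 complexes (x axis), with filled red points for genes at an adjusted p-value under 0.05. The MCM subunits lie between 3949 and 6352 counts per kb, while the GINS and polymerase delta subunits are spread over a wider range.

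The sliding clamp and its loaders had 1 call among 7 genes. Pcna, the clamp that tethers polymerases to DNA, was at 0.14 with an interval from -0.14 to 0.42 in the authors' deposited table. Its pseudogene Pcna-ps2 had a mean count of 3287 against 14358 for Pcna, so reads could have been divided between these copies. Of the loader genes, Rfc5 was called positive at 0.30 ± 0.097 per the authors' deposited table (adjusted p-value 0.00928). Rfc1, the large subunit, was at 0.13 ± 0.086, Rfc2 at 0.056 ± 0.096 and Rfc4 at -0.068 ± 0.094. Rfc3 was at -0.22 with an interval from -0.44 to -0.0049 and missed the threshold (adjusted p-value 0.12 in the authors' deposited table).

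Dscc1 belongs to an alternative loader that acts in sister chromatid cohesion. It was the least abundant of the 44 genes and stood at -0.20 with an interval from -0.56 to 0.15 in the authors' deposited table. Of its loader partners, Chtf8 was not called, at -0.038 ± 0.10 (adjusted p-value 0.827), and Chtf18 was called positive at 0.51 ± 0.086 (adjusted p-value 4.98e-08 in the authors' deposited table).

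Among single-strand binding and lagging-strand genes, 1 of 5 was called. Rpa1, the large subunit of replication protein A, was at 0.21 ± 0.079 per the authors' deposited table (adjusted p-value 0.0287). Rpa2 had a larger fold change, 0.27, but a standard error of 0.15 and an interval from -0.024 to 0.56, and it did not pass. Rpa3, the smallest subunit, was at -0.24 with an interval from -0.48 to -0.001 per the authors' deposited table (adjusted p-value 0.128). With GC and length trends removed, Rpa3 moved to -0.33 and was called negative. The levels of the 3 subunits were close, between 1954 and 2811 counts per kb. Fen1, the nuclease that trims Okazaki fragments, and Lig1, the ligase that seals them, were at -0.077 ± 0.17 and 0.046 ± 0.10 in the authors' deposited table. Of the exon bases of Fen1, 78.8% overlap the antisense gene Gm10143, which had a mean count of 133.6 against 3419 for Fen1.

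Nucleotide supply genes had 0 calls by the authors' DESeq2 test, and 0 of the 3 reached an unadjusted p-value under 0.05. Rrm1 and Rrm2, the subunits of ribonucleotide reductase, were at 0.064 and -0.040 in the authors' deposited table, with intervals from -0.18 to 0.31 and from -0.27 to 0.19. Tyms, which makes thymidylate, stood at 0.25 with an interval from -0.056 to 0.55.

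CAF-1 genes likewise had 0 calls by the same test and 0 at an unadjusted p-value under 0.05. Chaf1a (ENSMUSG00000002835), the large subunit that binds the clamp, was at -0.094 ± 0.13 per the authors' deposited table (adjusted p-value 0.633), and its interval ran from -0.34 to 0.15. Chaf1b (ENSMUSG00000022945), the middle subunit, was at 0.063 ± 0.088 (adjusted p-value 0.649) and an interval from -0.11 to 0.24. Expressed as folds, these are 0.937 for Chaf1a and 1.04 for Chaf1b, whose sign turned relative to ribosomal protein genes (-0.029). Rbbp4, the small subunit, which CAF-1 shares with other chromatin complexes, was at 0.26 ± 0.12 in the authors' deposited table and missed the threshold (adjusted p-value 0.0901). Exons of Chaf1a overlap the opposite-strand gene Ubxn6 over 52.5% of their length, and Ubxn6 was called positive at 0.28.

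The histone chaperones that hand H3 and H4 to CAF-1 were not called either. Asf1a and Asf1b were at -0.29 ± 0.15 and 0.19 ± 0.11 in the authors' deposited table. Among 25 other histone chaperone and assembly genes, 6 were called positive and 3 negative, against 2 and 5 relative to ribosomal protein genes. The positive genes with the smallest p-values were Hjurp, the chaperone of centromeric histone, at 0.32, Cabin1, a subunit of the HIRA complex, at 0.39, and Hat1, which acetylates new histone H4, at 0.29 in the authors' deposited table. The negative genes were Dnajc9 at -0.50, Ubn1 at -0.25 and Slbp, which binds replicative histone mRNA, at -0.41.

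Seen by role, the medians ran from -0.015 for the CAF-1 genes to 0.26 for origin recognition in the authors' deposited table. Helicase activation stood at 0.22, the loading factors and inhibitor at 0.17, the MCM ring at 0.17, polymerases and primase at 0.10, nucleotide supply at 0.064, the clamp and loaders at 0.056, and single-strand binding and lagging-strand genes at 0.046. Licensing as a whole had 4 of 12 genes called and a median of 0.19. Genes outside licensing and helicase activation had 5 of 25 called and a median of 0.063. Of all genes, 14.6% were called positive and 15.9% negative. The roles hold 2 to 8 genes each and overlap widely, and their differences were not tested.

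Of 17 other genes of licensing and firing, 12 were positive and 5 negative in sign. In the authors' deposited table, 5 (29.4%) were called positive and 2 (11.8%) negative, against 14.6% and 15.9% of all genes. Relative to ribosomal protein genes, 3 were called positive and 4 negative. Kat7, which acetylates histones at origins, was positive at 0.42, as were Orc5 and Mcmdc2, the last at 1.58 with a mean count of only 16.2 and a standard error of 0.56. Cdc7, the kinase that fires origins, was negative at -0.54 ± 0.10 (adjusted p-value 1.34e-06 in the authors' deposited table), and Donson was negative at -0.43. Dbf4, the activating partner of Cdc7, was at 0.13 and was not called.

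Of 25 other fork and polymerase genes, 8 were called positive and 5 negative in the authors' deposited table, 9 positive and 2 negative with GC and length trends removed, and 6 in each direction relative to ribosomal protein genes. Besides Pole4 and Chtf18, Top2a, the topoisomerase of dividing cells, was positive at 0.60. Top2a is also counted among the G2 and M phase genes below. Pclaf, a clamp-binding protein, was negative at -0.70 ± 0.076 (adjusted p-value 3.97e-18 in the authors' deposited table), and Top2b and Primpol were negative at -0.86 and -0.56. Of 30 other nucleotide supply genes, 2 were called positive (Dctpp1 and Shmt1, both at 0.34) and 2 negative (Samhd1, which degrades deoxynucleotides, at -0.36 and Tk2 at -0.41). Relative to ribosomal protein genes, 1 of these 30 was called positive and 4 negative.

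Of 19 genes that regulate the programme, E2F and pocket protein genes with others such as Mybl2, 4 were called positive and 4 negative in the authors' deposited table. Relative to ribosomal protein genes, 2 were called positive and 5 negative. Mybl2, E2f2 and Tfdp2 were positive at 0.77, 0.89 and 0.33, and E2f5, E2f6 and E2f7 were negative at -0.50, -0.85 and -0.51. Lin37 was also called positive, at 0.37, and the pocket protein gene Rb1 negative, at -0.64. E2f3, E2f4 and E2f8 were not called, at -0.077, 0.13 and -0.090. E2f1, the activator most often linked to replication genes, was at 0.012 ± 0.20 in the authors' deposited table. Of 15 genes that turn over licensing factors or drive S phase, Cdk1 and Cdk2 were called positive at 0.58 and 0.46, and Ccne2 and Cul4a negative at -1.23 and -0.28. The calls of this list were 2 positive and 4 negative relative to ribosomal protein genes.

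Replication checkpoint genes had 7 positive calls and 1 negative among 24 in the authors' deposited table. The positive calls became 4 relative to ribosomal protein genes, and with GC and length trends removed there were 9 positive and 0 negative. Fanci, of the Fanconi pathway, led at 0.93 ± 0.084, followed by Brca2 at 0.57 and Hus1 at 0.37, and Wrn was negative at -0.40. For comparison, 22 of 30 G2 and M phase genes were called positive and 0 negative, with Ube2c, Ect2 and Nusap1 at 0.90, 0.65 and 0.81 in the authors' deposited table. Relative to ribosomal protein genes, 14 of the 30 were called positive. Their median was 0.35, above that of the replication genes, and the difference was not tested.

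**Figure D5:**
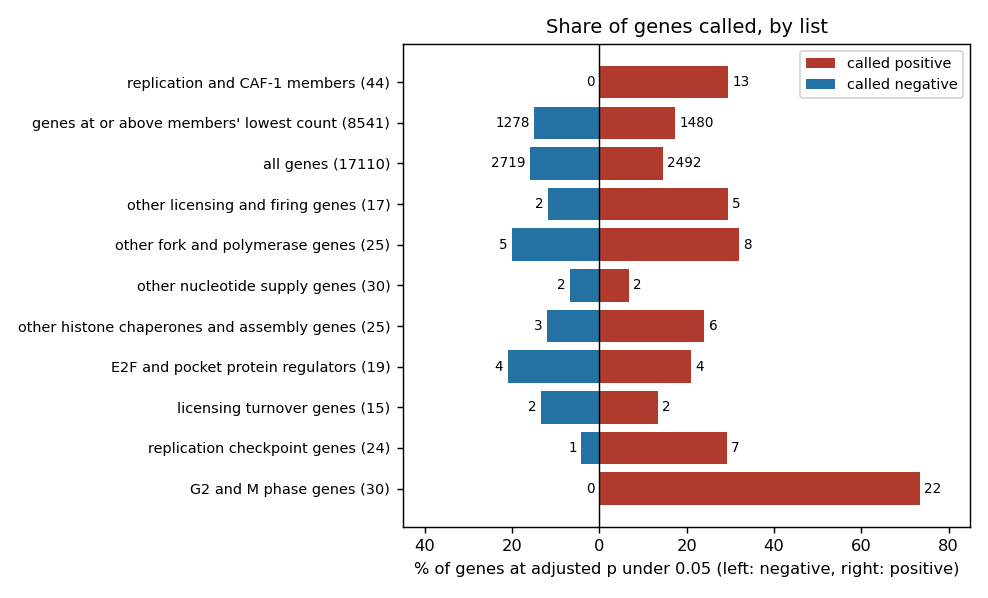
Percent of genes called at an adjusted p-value under 0.05 (x axis, positive to the right and negative to the left) for the 44 replication and CAF-1 genes, for 2 backgrounds and for 8 other lists (rows, with the number of genes in parentheses and the number called beside each bar). The replication genes have 13 positive and 0 negative calls, and the G2 and M phase genes 22 positive and 0 negative. Top2a is counted both there and among the other fork and polymerase genes.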

How the data were processed

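Polyadenylated RNA of 6 samples was sequenced as paired ends on a DNBSEQ platform, per the labels' protocols. The submitters' processing notes name FastQC 0.12.1, Trimmomatic 0.39, STAR 2.7.11b, RSEM 1.3.3, DESeq2 1.45.3 and GRCm39. The annotation release, model formula, reference group and use of strand are not given in the sources used here. Per the file headers, the authors deposited for each gene a mean normalized count (a signal, over all libraries), a log2 fold change with its standard error on the log2 scale, a Wald score, a p-value and an adjusted p-value. The authors' score differed by at most 5.77e-07 from the ratio of fold change to standard error. The 6 count columns that match no sample were not used, so the planned edgeR test was not run and the authors' DESeq2 calls stand in its place.

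Here, 95% intervals, counts per list and alternative centrings with p recomputed from the Wald ratio and Benjamini-Hochberg adjustment were computed in Python 3.11.15. Loess in R removed GC and length trends (span 0.3, 16795 genes with GENCODE M21 values, all 44 members among them). The adjustment, the intervals and removal of a GC trend were tried on simulated data. Noise there was drawn with the deposited standard errors, so the coverage of the intervals was set in advance. The centrings, the counts per list and removal of a length trend were not tried. Builds differ, so GENCODE M21 (GRCm38) gave only lengths, GC, overlaps and gene order. Of the 44 genes, 17 share exon bases with another annotated gene. Genes and lists were chosen with earlier results of these data known. All 44 genes are named. Of every other list up to 3 called genes in each direction with the smallest p-values are named, with the remaining subunits of the same complexes and Asf1a and Asf1b. Chtf8, Dbf4, E2f1, E2f3, E2f4, E2f8, Lin37, Rb1, Pou5f1, Arg2, Nelfa, Zfp750 and the overlap partners and neighbours were named after their values were seen.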

Additional observations from a re-analysis of the deposited data

How the results depend on the processing

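No paired analysis was possible because the only values used, those of the deposited comparison, are 1 per gene and not per sample. For the same reason, leaving out each replicate, other normalizations and filters on counts per library were not run, and depth was not examined. The 13 positive calls became 8 at an adjusted p-value of 0.01, 6 relative to ribosomal protein genes and 1 with a log2 fold change over 0.5, Pola1. Over all genes, the shares called positive under these settings were 10.8%, 10.9% and 9.4%, in the same order. The 0 negative calls became 3 after ribosomal centring and 2 with GC and length trends removed. Over all genes, 20.5% and 15.2% were called negative there. Other settings left both counts within 1.5 times. Ribosomal centring moved at least 1 count of calls by over 1.5 times in 7 of 8 other pathway lists, and removal of GC and length trends in 2 of 8, with the values given beside each list. Neither did so in the 4 marker lists. Of the fold changes, 9 turned sign after ribosomal centring, none of them called on either side: Mcm4 (-0.081), Gins4 (-0.054), Prim1 (-0.011), Prim2 (-0.077), Pold3 (-0.085), Rfc2 (-0.037), Lig1 (-0.047), Rrm1 (-0.028) and Chaf1b (-0.029). Gins4 was at -0.0097 without GC and length trends and Pold3 at -0.0016 when centred on all genes. The number of genes with an interval within 0.5 of 0 was 34 as deposited. It was 25 with a 99% interval, 31 with GC and length trends removed and 37 relative to ribosomal protein genes, and 44 with a limit of 1. All of these are within 1.5 times of the deposited count. Except for the stricter limits, the causes were not tested.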

Other observations

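Pola1 was the only X-linked gene among the 44. In the authors' deposited table, 15.7% of 606 X-linked genes were called positive and 22.3% negative, against 14.5% and 15.9% of 16160 autosomal genes. Gm14780, next in GENCODE M21 order with a span that overlaps that of Pola1, was not called at 0.16 ± 0.62, with a mean count of 13.7. The next abundant gene, Pcyt1b, which makes a precursor of phosphatidylcholine, lay 22708 bases from Pola1. It was called positive at 0.71 ± 0.12 (adjusted p-value 7.08e-08), close to the 0.72 of Pola1. Pdk3, the gene after it, was at -0.11 and AU015836 at 0.086, and neither was called. On the other side of Pola1, the nearest genes with values lay much further off. Gm27000, 4544455 bases away, was not called at 0.72 ± 0.33 (adjusted p-value 0.0879). Mageb4, 6999674 bases away, was called positive at 4.04 ± 0.94, with a mean count of 11.4. Nr0b1, a nuclear receptor of pluripotent cells, lay 7108820 bases away and was called positive at 1.36 ± 0.15. Gk, 7527948 bases away, was not called at 0.18. These neighbours were looked at after the value of Pola1 was known, and no test of the neighbourhood was made.

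Pole2 shares 8.5% of its exon bases with the same-strand gene Gm49384. In the authors' deposited table Gm49384 was called negative at -0.49 ± 0.15, while Pole2 was called positive at 0.30. Klhdc2, a neighbour further along, was negative at -0.84 ± 0.10.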
